A study of Mus musculus with 34 samples.

Results

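Genes that copy DNA and genes that divide the cell were followed through 17 groups of mouse testis samples, as 42 members of the cell cycle chosen by name. They comprised 11 genes of origin licensing, 3 of DNA synthesis, 8 cyclins and kinases of G1 and its passage into S phase, 6 of S, G2 and M phase, 12 of mitosis and proliferation, and 2 inhibitors of cyclin-dependent kinases (CDKs). They are listed by name, with no threshold on a measured value. A probe could be matched for 41 of the 42, and where a gene had several probes the brightest was used. The array gave 33370 entries, of which 16398 were genes with a symbol and the rest unmatched probe names. Shares of all genes given below are taken over such entries. The expression of Mki67 was not analysed here.

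In each cycle a cell first loads the Mcm helicase onto origins, through the Orc complex, Cdc6 and Cdt1, and then copies its DNA around the Pcna clamp. It divides only after cyclin B with Cdk1, and the kinases Plk1, Aurka and Aurkb, have been switched on, and the replication and division genes are usually transcribed in successive waves. In the adult mouse testis the dividing cells are germ cells, since Sertoli cells, the somatic nurse cells of the tubule, have left the cycle. The tubule passes through a cycle of numbered stages, in which preleptotene spermatocytes make their last round of DNA replication in stages VII and VIII and spermatocytes divide by meiosis in stage XII.

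All 34 samples came from C57BL6/j mice 6 to 8 weeks old and were hybridised singly to 1-colour Agilent arrays, with 2 biological replicates in each group. The groups were whole testes, wild-type (WT) Sertoli cells sorted by FACS, Nanos3 knockout (N3KO) Sertoli cells sorted by FACS, and cultured WT Sertoli cells given vehicle or retinoic acid (RA) for 24 h at a dose that the labels write as 1 mM. The other 12 groups were seminiferous tubules in 4 stage groups (I-III, IV-VI, then VII-VIII, and last IX-XII), either untreated or taken 5 days after lentivirus was injected into the testis. The virus carried Venus, a fluorescent protein used as the control, or dnRARa, by its name a dominant-negative retinoic acid receptor alpha. Sample titles write the third stage group as VI-VIII and the source descriptions as VII-VIII, and it is called VII-VIII here. The promoter that drove dnRARa, the cells it reached, the marker used for sorting, and whether animals were pooled are not given in the sources used here. Nanos3 knockout testes are known to lose their germ cells.

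Levels are log2 processed signals, from each of which the 75th percentile of its array was subtracted, so that 0 is the level of that percentile, and levels are compared between samples and never between genes. Between 54.89% and 74.42% of spots were well above background on an array, no member was saturated, and 2 arrays a group limit the precision. Both arrays of untreated I-III shared a slide of their own, as did those of IV-VI, so slide and stage cannot be told apart in the untreated steps that involve them. Each virus slide held all 4 stages of 1 replicate of 1 arm, so slide and virus cannot be told apart between Venus and dnRARa, whose same-numbered replicates shared a scan day. Sorted N3KO cells were on a slide of their own, scanned on the day of the WT cells, so slide and genotype cannot be told apart. The 20 measured Sertoli markers summed to a linear level of 339 to 364 in sorted WT cells, against 144 to 146 in whole testes. The same WT samples held summed levels of 490 to 768 for 15 spermatid markers and of 124 to 177 for 14 spermatocyte markers. Markers of Leydig cells, the hormone-producing cells between tubules, summed to 2000 to 2060 in them, against 207 to 211 in testes.

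Plk1, Ccnb1, Ccna1 and some other division genes fell at VII-VIII in untreated tubules and rose again at IX-XII. Pcna, Ccne2 and the CDK inhibitor Cdkn1a peaked at VII-VIII. The 2 sides did not part cleanly, as Aurka did not pass in the step into VII-VIII and Mcm2, Mcm3, Mcm4 and Cdt1 also fell in it. Plk1, the kinase that drives entry into and exit from mitosis and meiosis, fell 9.24-fold from IV-VI to VII-VIII and then rose 13.4-fold. Aurkb, the catalytic subunit of the chromosomal passenger complex, rose 18.8-fold over the same second step. The mean of 3 division genes (Plk1, Aurka and Ccnb1), each centred on its own mean over all tubule arrays, was 1.21 at I-III, 0.23 at IV-VI, -1.65 at VII-VIII and 1.06 at IX-XII. The same mean for 9 replication genes (Mcm2 to Mcm7, Orc1, Orc6 and Pcna) moved far less, from -0.14 to 0.13, 0.03 and -0.46. A mean evens out genes that peak at different stages, such as Pcna at VII-VIII (range of stage means 1.09) and Mcm3 at IV-VI (1.34). Single replication genes ranged from 0.27 (Mcm7) to 1.34. Plk1, Ccnb1 and Aurka ranged by 4.01, 2.85 and 2.19, while the other measured mitosis genes ranged by 1.16 or less, except Aurkb (4.24). These profiles are descriptions, with no test.

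**Figure D1:**
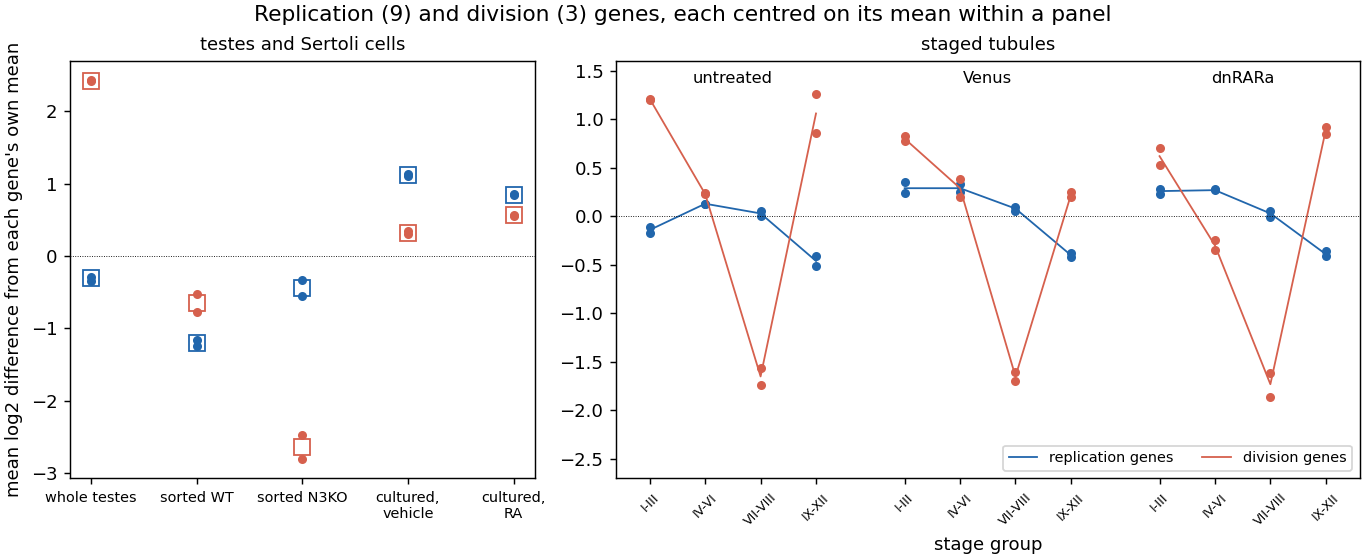
Mean centred level, in log2 units, of 9 replication genes and of 3 division genes in each group, with a point for each array. Open squares mark the group means for cells, and lines join the group means for tubules. In tubules the mean of the division genes spanned 2.94 log2 units between the highest and lowest group and that of the replication genes 0.75. A mean evens out genes that peak at different stages. In untreated tubules the other measured mitosis genes, except Aurkb, each ranged by 1.16 or less.

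The letters around the start sites of licensing and mitosis genes differ, and were searched for motifs that E2F factors and the repressor and activator complexes of the late cycle are known to bind. RefSeq windows of 300 bases on GRCm38.p6, from 250 before the start site to 50 from it on, were found for 34 of the 42 members. The E2F motif was searched as TTTCCCGC, TTTCGCGC, TTTGCCGC or TTTGGCGC, the cell cycle homology region (CHR) as TTTGAA or TTCGAA, and the CCAAT box as CCAAT, each on both strands. In the sequences printed here, written 5′ to 3′ along the gene's strand, capitals mark every match. The first pair, Mcm3 (chr1:20820263-20820562, minus strand) and Orc1 (chr4:108579204-108579503, plus strand), shows E2F letters in licensing genes.
Mcm3: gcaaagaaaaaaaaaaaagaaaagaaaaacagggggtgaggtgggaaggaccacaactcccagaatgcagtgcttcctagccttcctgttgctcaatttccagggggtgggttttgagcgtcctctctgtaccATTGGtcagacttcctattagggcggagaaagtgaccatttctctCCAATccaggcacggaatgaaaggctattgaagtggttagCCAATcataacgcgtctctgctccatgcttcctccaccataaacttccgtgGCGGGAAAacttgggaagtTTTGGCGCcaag
Orc1: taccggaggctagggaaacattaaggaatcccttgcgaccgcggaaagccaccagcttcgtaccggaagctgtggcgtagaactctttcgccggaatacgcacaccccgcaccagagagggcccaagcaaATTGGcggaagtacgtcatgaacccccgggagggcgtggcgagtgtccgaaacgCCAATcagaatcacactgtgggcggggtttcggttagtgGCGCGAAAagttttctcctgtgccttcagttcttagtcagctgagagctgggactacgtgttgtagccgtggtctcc
Plk1 (chr7:122159185-122159484, plus strand) and Aurka (chr2:172370521-172370820, minus strand) show a CHR just past the start site, and Cdk1 (chr10:69352863-69353162, minus strand) holds both kinds.
Plk1: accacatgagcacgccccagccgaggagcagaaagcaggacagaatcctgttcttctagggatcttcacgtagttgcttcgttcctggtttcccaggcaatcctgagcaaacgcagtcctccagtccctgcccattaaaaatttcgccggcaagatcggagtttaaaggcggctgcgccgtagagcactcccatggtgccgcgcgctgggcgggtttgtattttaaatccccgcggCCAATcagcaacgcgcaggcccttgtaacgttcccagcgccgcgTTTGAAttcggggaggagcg
Aurka: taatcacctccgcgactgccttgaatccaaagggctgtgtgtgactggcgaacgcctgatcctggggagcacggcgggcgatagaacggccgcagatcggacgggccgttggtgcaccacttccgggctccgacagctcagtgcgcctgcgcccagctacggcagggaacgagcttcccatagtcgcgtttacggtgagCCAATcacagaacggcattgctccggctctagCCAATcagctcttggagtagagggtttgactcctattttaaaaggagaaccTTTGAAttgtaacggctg
Cdk1: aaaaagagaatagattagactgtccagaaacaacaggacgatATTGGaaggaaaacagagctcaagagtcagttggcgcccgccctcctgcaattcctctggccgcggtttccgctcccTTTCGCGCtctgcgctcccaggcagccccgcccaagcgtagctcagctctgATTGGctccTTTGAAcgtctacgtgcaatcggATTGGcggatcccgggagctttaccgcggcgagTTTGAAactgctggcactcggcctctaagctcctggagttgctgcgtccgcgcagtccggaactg
Ccnb1 (chr13:100786437-100786736, minus strand) shows a division gene whose window holds CCAAT boxes alone.
Ccnb1: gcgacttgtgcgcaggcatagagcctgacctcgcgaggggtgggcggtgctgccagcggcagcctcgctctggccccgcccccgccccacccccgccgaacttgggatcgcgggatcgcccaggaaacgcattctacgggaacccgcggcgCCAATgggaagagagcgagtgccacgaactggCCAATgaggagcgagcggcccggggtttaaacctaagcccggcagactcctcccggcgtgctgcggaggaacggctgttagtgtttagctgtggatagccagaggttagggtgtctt

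The 2 E2F matches of Mcm3 began 19 and 38 bases after the start site and the match of Orc1 27 bases before it. The CHR of Plk1 began 30 bases and that of Aurka 32 bases after the start site. E2F letters stood in 7 of the 9 licensing genes with a window (Cdc6, Cdt1, Mcm3, Mcm5, Mcm6, Mcm7 and Orc1) and in 0 of 11 mitosis genes with a window (Mki67 among them, and all the measured ones but Aurkb), beside 2.26% of all 32851 windows. CHR letters stood in 9 of 11 mitosis genes (Aurka, Bub1, Bub1b, Cdc20, Kif11, Mki67, Plk1, Top2a and Ttk) and in 2 of 9 licensing genes, beside 19.2% of windows. A CHR with at least 2 CCAAT boxes stood in 6 mitosis genes, beside 2.31%. These are matches of letters, not measured binding. The 3 DNA synthesis genes, Pcna among them, held neither an E2F nor a CHR match in this window.

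Among single members, 36 of 41 differed between the 4 untreated stage groups in limma's F test, where 69.1% of all 19494 genes tested did. Plk1 read 5.76 and 5.84 at I-III, 5.05 and 4.96 at IV-VI, 1.83 and 1.76 at VII-VIII, and 5.36 and 5.72 at IX-XII. Both VII-VIII arrays lay more than 3 units below every other array, and no 2 groups on either side of that drop overlapped. From IV-VI to VII-VIII the difference was -3.21 ± 0.17 (standard error, SE; adjusted p = 2.27e-08), and from VII-VIII to IX-XII it was 3.75 ± 0.17 (adjusted p = 2.22e-09).

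Ccnb1, cyclin B1, the partner of Cdk1, followed the same course. It read 3.86 and 3.94, 3.19 and 3.22, 1.26 and 0.83, and 3.1 and 3.37 in stage order. The VII-VIII pair again stood below all the others, by -2.16 ± 0.16 against IV-VI (adjusted p = 2.12e-07). Ccnb1 has 3 probes, which gave -2.16, -1.91 and -1.86 for this step and 2.19, 2.53 and 2.44 for the return, the same direction in both steps. For I-III against IX-XII they gave 0.66, 0.10 and -0.05.

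Ccna1, the cyclin A of meiotic germ cells, fell from 3.54 and 3.19 at IV-VI to 0.76 and 0.76 at VII-VIII, then stood at 4.52 and 4.15 at IX-XII. Both steps passed, at -2.60 ± 0.19 and 3.57 ± 0.19 (adjusted p = 1.87e-07 and 4.95e-09). Aurkb read -0.43 and -0.35, -1.57 and -1.49, -3.66 and -3.26, and 0.48 and 1.07. It was highest at IX-XII and lowest at VII-VIII, with no overlap between any 2 stage groups. Under normexp background correction its fall into VII-VIII was -0.28 (adjusted p = 0.591), and its return passed in that setting too.

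Aurka, the spindle pole kinase, fell earlier than Plk1 in untreated tubules, a difference in timing that was not tested. It read 6.22 and 6.08 at I-III, 4.67 and 4.78 at IV-VI, 4.47 and 4.44 at VII-VIII, and 6.35 and 6.92 at IX-XII. The drop came between I-III and IV-VI (-1.43 ± 0.17, adjusted p = 0.000244), and the step from IV-VI to VII-VIII did not pass (-0.27 ± 0.17, adjusted p = 0.225). Cdk1, the mitotic kinase, shared this order, with 2.18 and 2.09, 1.13 and 1.09, 0.89 and 0.91, and 2.67 and 2.77, and its second probe was not well above background on any of these arrays. Rrm1, the large subunit of ribonucleotide reductase, did so as well, falling by 0.69 into IV-VI and by 0.29 into VII-VIII before rising by 1.06 into IX-XII. The second of these falls was lost without IV-VI replicate 1 (adjusted p = 0.152), VII-VIII replicate 1 (0.0795) or VII-VIII replicate 2 (0.114). Slide and stage cannot be told apart in the untreated step into IV-VI, and in Venus tubules it called no member. Mean Cdk1 in stage order was 1.79, 1.53, 0.84 and 2.35 in Venus tubules, with the larger fall into VII-VIII. In dnRARa tubules it was 1.43, 0.85, 0.43 and 2.53. Aurka was lowest at VII-VIII in Venus and at IV-VI in dnRARa tubules.

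**Figure D2:**
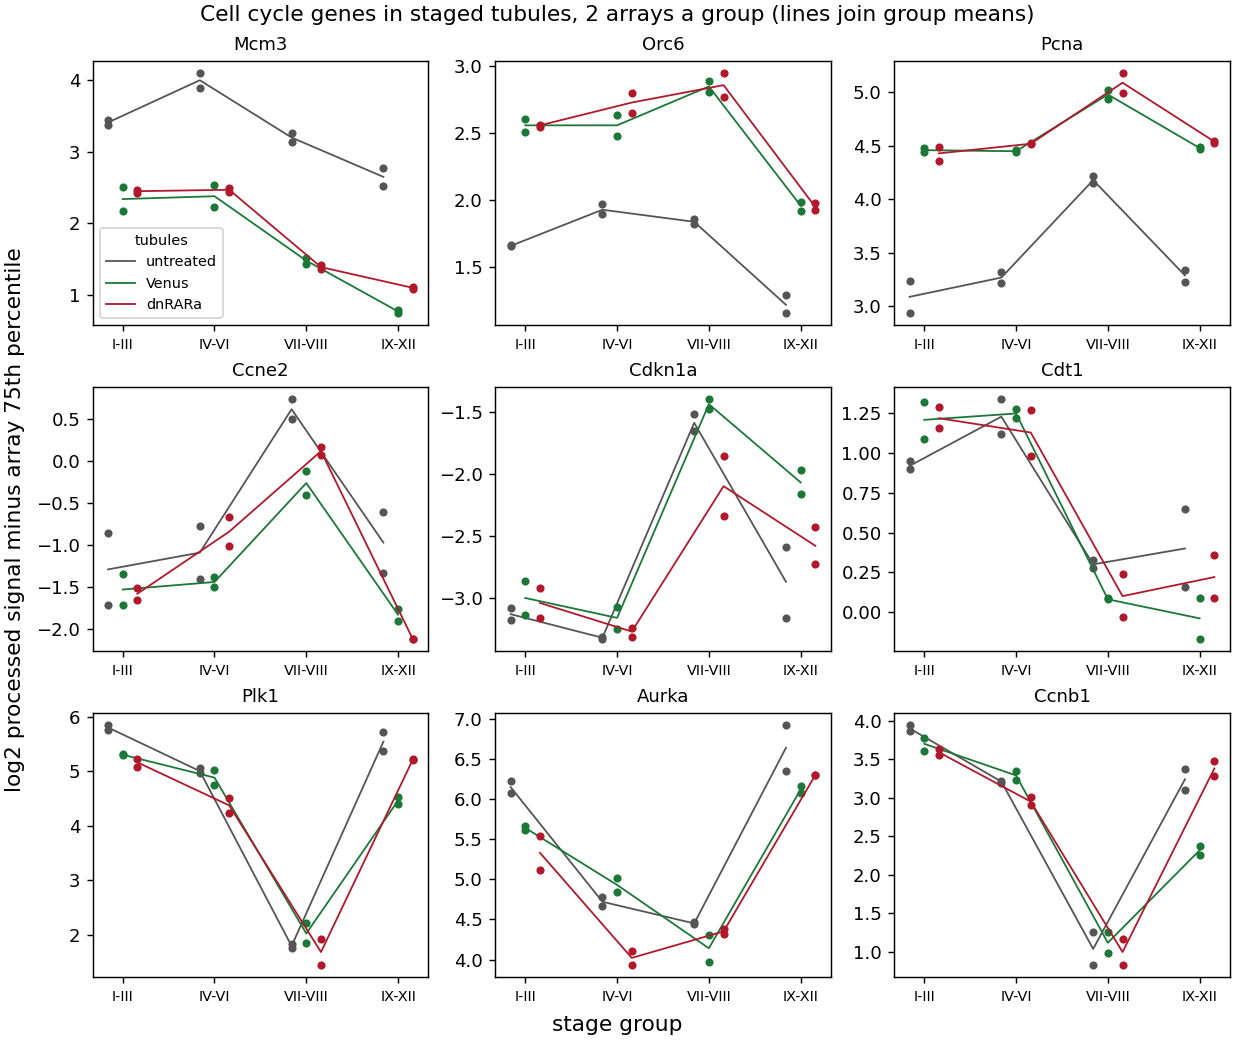
Levels of 9 members (log2, 75th percentile of the array = 0) in the 4 stage groups of untreated, Venus and dnRARa tubules, with a point for each array and a line through the means. Plk1 and Ccnb1 dip at VII-VIII in all 3 arms, where Pcna, Ccne2 and Cdkn1a are highest.

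On the replication side, members did not move as a block. Pcna, the sliding clamp of the replication fork, read 3.24 and 2.94, 3.32 and 3.22, 4.22 and 4.15, and 3.34 and 3.23 in stage order. The VII-VIII arrays were the highest and did not overlap the rest, at 0.91 ± 0.11 above IV-VI (adjusted p = 1.12e-05) and with a fall of -0.90 ± 0.11 into IX-XII (adjusted p = 7.55e-06). Ccne2, a cyclin E that starts S phase with Cdk2, read -0.86 and -1.72, -1.40 and -0.77, 0.74 and 0.50, and -1.33 and -0.61. It was positive only at VII-VIII among the untreated groups, and rose 3.26-fold from IV-VI (1.71 ± 0.28, adjusted p = 0.000196). Gmnn, geminin, which binds Cdt1 and blocks a second round of licensing, rose in both steps, by 0.88 ± 0.14 and then 0.55 ± 0.14. The second rise was lost without IX-XII replicate 2 (adjusted p = 0.0653).

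Among licensing genes 5 of 11 were lower at VII-VIII than at IV-VI and 1, Gmnn, was higher. Mcm3, a subunit of the replicative helicase, read 3.37 and 3.45, 3.89 and 4.10, 3.26 and 3.14, and 2.52 and 2.78. It was highest at IV-VI and lowest at IX-XII, with a fall of -0.80 ± 0.13 into VII-VIII (adjusted p = 0.000233) and a further -0.54 ± 0.13 into IX-XII (adjusted p = 0.00324). Cdt1, the licensing factor, fell by 0.93 and Mcm2 by 0.65 from IV-VI to VII-VIII, with SEs of 0.17 and 0.12. Orc6 held 1.86 and 1.82 at VII-VIII and fell to 1.16 and 1.29 at IX-XII (-0.61 ± 0.10, adjusted p = 0.000116). For Cdc6, the loader of the helicase, 2 probes disagreed, with -0.97 and 0.89 for the step into VII-VIII, and its direction there is uncertain.

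The 2 CDK inhibitors moved in opposite directions. Cdkn1a, p21, read -3.08 and -3.18, -3.31 and -3.33, -1.66 and -1.52, and -2.59 and -3.16, and so rose 3.31-fold into VII-VIII (1.73 ± 0.19, adjusted p = 6.69e-06). Cdkn1b, p27, fell by 1.23 ± 0.23 in that step (adjusted p = 0.000631), but under normexp the difference was 0.03. Among G1 cyclins, Ccnd1 fell from -3.25 and -3.28 at VII-VIII to -4.60 and -4.60 at IX-XII, where 1 of its 2 arrays was above background (-1.34 ± 0.17, adjusted p = 1.67e-05).

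Counted by role, the step from I-III to IV-VI called 18 members, 4 higher and 14 lower, beside 22.4% of all genes (11.8% higher and 10.7% lower), and 6 of the 11 mitosis genes were among the lower. The step into VII-VIII called 25, 5 higher and 20 lower, beside 42.4% of genes (22.1% higher and 20.4% lower), including 5 of 11 licensing genes and 5 of 11 mitosis genes lower. The step into IX-XII called 31, 20 higher and 11 lower, beside 49.9% (25.2% higher and 24.6% lower), with 9 of 11 mitosis genes higher and 5 of 11 licensing genes lower. The median member difference in these steps was -0.23, -0.29 and 0.28, where the median of all genes tested was 0.01, 0.03 and 0.00. From IX-XII to I-III, which closes the cycle, 20 members were called beside 34.5% (15.1% higher and 19.4% lower), with 6 licensing genes higher and 4 mitosis genes lower at I-III. That last count was 8 without I-III replicate 2 and 13 without IX-XII replicate 2.

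The share of called genes that were higher depended on the scaling. It was 52.5% in the step into IV-VI, 33.3% with each array scaled to its median and 68.2% with normexp, and the members called were then 2 higher and 16 lower, or 6 higher and 11 lower. For the step into IX-XII it was 50.6%, and 60.9% with median scaling, where 20 members were higher and 9 lower. For I-III against IX-XII it was 43.7%, and 31.7% with normexp, where 7 were higher and 4 lower.

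Of 44 other genes of G2 and mitosis, 5 were higher and 26 lower at VII-VIII than at IV-VI, and 28 were higher and 4 lower at IX-XII than at VII-VIII. Cenpe, a kinetochore motor, fell by 1.76 and then rose by 2.19. Of 38 other genes of replication and S phase, 14 were higher and 7 lower into VII-VIII, and 7 higher and 18 lower into IX-XII. Chaf1b, a subunit of the histone chaperone that works behind the fork, rose by 1.21 ± 0.14 into VII-VIII, whereas Tyms, thymidylate synthase, fell by 1.17 ± 0.14. Of 32 genes of E2F, RB and CDK control, 7 were higher and 7 lower into VII-VIII. In such tissue pieces, fewer cells of a type and less RNA per cell cannot be told apart. Across the untreated stages the summed level of spermatocyte markers ranged from 303 to 413 and that of spermatogonial markers from 82.3 to 138, highest at VII-VIII and in 1 IX-XII array. Their part in these results was not tested.

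**Figure D3:**
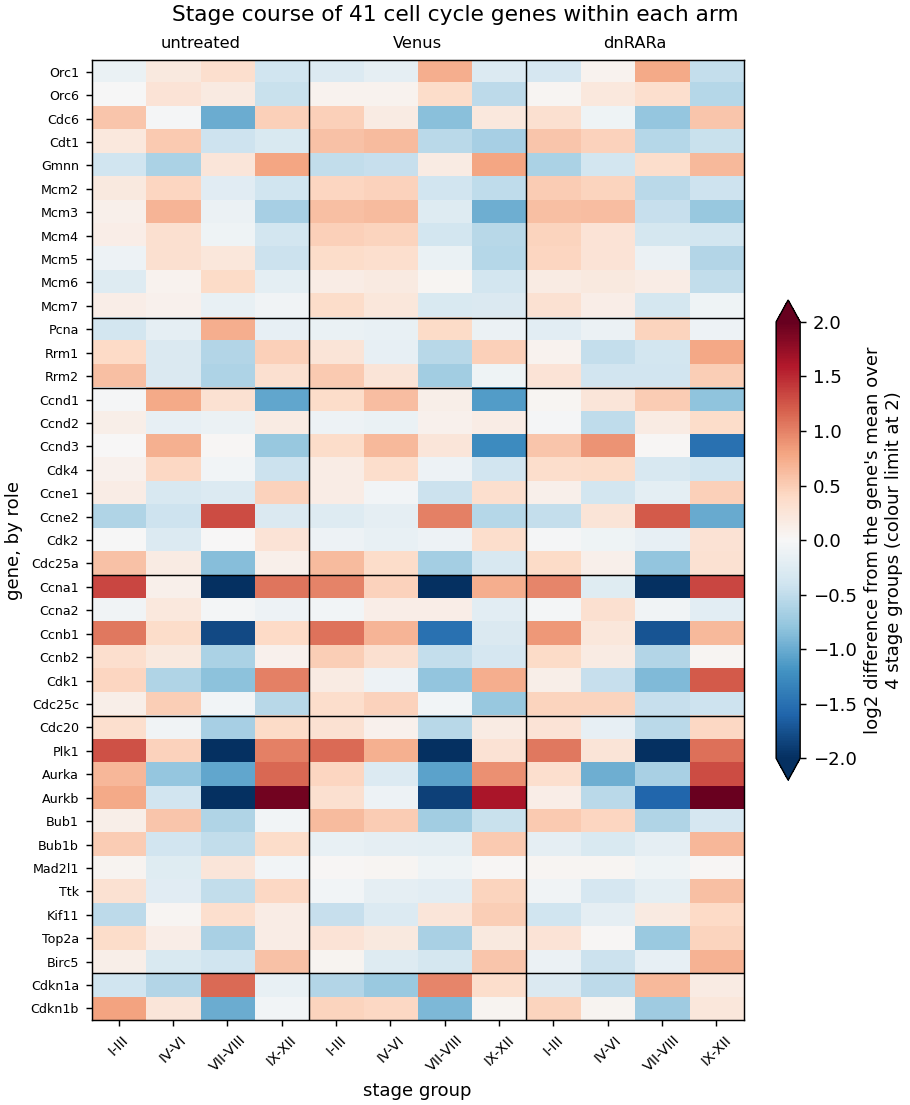
Mean level of each of the 41 measured members at the 4 stages in each arm, in log2 units centred on the gene's own mean within the arm, with genes ordered by role. VII-VIII is the lowest of the 4 stages for 20 untreated, 21 Venus and 19 dnRARa members, counts that were not made over all genes.

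The virus arms shared no array with the untreated tubules and repeated much of this course. From IV-VI to VII-VIII, 30 members were called in Venus tubules (6 higher, 24 lower, beside 33% of genes, 15.9% higher and 17.1% lower) and 28 in dnRARa tubules (6 higher, 22 lower, beside 31.4%, 17.3% higher and 14.1% lower). In all 3 arms, 16 members were lower in this step, Plk1, Ccnb1, Ccnb2, Ccna1, Aurkb, Bub1, Cdc20, Cdc25a, Cdc25c, Top2a, Mcm2, Mcm3, Mcm4, Cdt1, Cdc6 and Cdkn1b, though the probes of Cdc6 disagree. They made up 16 of 20 lower in untreated, of 24 in Venus and of 22 in dnRARa tubules. In untreated tubules under normexp, the fall of Aurkb did not pass and that of Cdkn1b was reversed. Pcna, Ccne2, Gmnn and Cdkn1a were higher in all 3. For this step and those below, the share of all genes called the same way in all 3 arms was not counted. The repetition is thus not shown to be particular to the members. For Pcna the rise was 0.53 ± 0.11 in Venus and 0.56 ± 0.11 in dnRARa tubules, smaller than the 0.91 of untreated ones, a difference that was not tested.

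From VII-VIII to IX-XII, 27 Venus members (16 higher, 11 lower, beside 36.4%, 18.6% higher and 17.8% lower) and 26 dnRARa members (18 higher, 8 lower, beside 38.9%, 20.4% higher and 18.5% lower) were called. In all 3 arms 15 were higher, among them Plk1, Aurka, Aurkb, Ccnb1, Ccna1, Cdk1, Birc5, Top2a and Ttk, and 7 were lower, which were Ccne2, Pcna, Orc1, Orc6, Mcm5, Ccnd1 and Ccnd3. From IX-XII to I-III, 26 Venus members (17 higher and 9 lower, beside 38.3%, 19.2% higher and 19.1% lower) and 23 dnRARa members (13 higher and 10 lower, beside 33.2%, 15.2% higher and 18% lower) were called, and in all 3 arms 10 were higher at I-III, including Mcm2, Mcm3, Mcm4, Mcm5, Cdt1 and Orc6. Between I-III and IV-VI no member was called in Venus tubules, where 0.00884% of genes were (0.00442% higher and 0.00442% lower),. In dnRARa tubules 8 members were lower in that step, beside 10% of genes (4.64% higher and 5.37% lower), and the count was 3 without I-III replicate 1 and 2 without IV-VI replicate 2. Of all genes called in that step 46.4% were higher, and 57% with median scaling. The stage with the lowest level was the same in all 3 arms for 26 members, and that with the highest for 22. Neither count was made over all genes, so this agreement is not shown to be particular to the members.

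WT samples sorted for Sertoli cells carried far less of the division programme than whole testes. Their Leydig markers summed to 2000 to 2060 (207 to 211 in testes) and their spermatid markers to 490 to 768 (2540 to 2750 in testes). The part of these other cells in the comparison was not tested. Relative to testes, 39 of 41 members were called in sorted WT cells, 8 higher and 31 lower, beside 79.2% of all genes (38.3% higher and 40.9% lower). All 11 mitosis genes and all 3 DNA synthesis genes were lower, and the 3 D cyclins, Cdk4, Cdkn1a, Cdkn1b, Mcm2 and Mcm4 were higher. Aurka read 5.34 and 5.35 in testes and 2.08 and 1.78 in sorted WT cells, a difference of -3.41 ± 0.16 (adjusted p = 3.36e-06). Ccnd2, a D cyclin that pairs with Cdk4, read -0.55 and -0.57 in testes and 1.58 and 1.55 in sorted WT cells (2.13 ± 0.20, adjusted p = 5.4e-05). Neither pair overlapped. Without any 1 of the 4 arrays, Cdkn1a (adjusted p from 0.0544 to 0.0801) and the synthesis gene Rrm2 (0.0739 to 0.106) were not past the threshold, Ccnd3 was not without testes replicate 2 (0.0536) or WT replicate 2 (0.0736), and the second probe of Cdkn1b was well above background on 1 of the 4.

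Replication and division genes moved apart in sorted cells of Nanos3 knockouts. In N3KO against WT sorted cells, 24 of the 39 members tested were called, 12 higher and 12 lower, beside 48.8% of genes (26.2% higher and 22.7% lower). Licensing genes were higher in 6 of 10 and lower in 0, while mitosis genes were higher in 2 and lower in 5 of 10. Of the 6 cyclins and kinases of S, G2 and M phase 4 were lower and 1, Ccna2, was higher. The 4, and so the 12 lower, include Ccnb1 by its brightest probe, which its other probes contradict. The median member difference was 0.02, beside 0.07 for all genes, as the 2 sides cancelled.

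Mcm6, a helicase subunit, read 2.15 and 2.18 in WT and 3.84 and 4.55 in N3KO cells. Both N3KO values stood above both WT values, by 2.03 ± 0.23 (4.08-fold, adjusted p = 0.000365). Cdt1 read -0.60 and -0.64 in WT and 0.78 and 1.08 in N3KO cells (1.55 ± 0.13, adjusted p = 6.53e-05). Ccna2, the somatic cyclin A of S phase and G2, went from -2.19 and -2.40 to -0.26 and -0.94 (1.70 ± 0.21, adjusted p = 0.000664). These groups did not overlap. Mcm3, Mcm4, Orc6, Pcna and Rrm1 were higher by 1.51, 1.27, 1.17, 0.66 and 0.48, and Mcm5 by 0.55, a call lost without WT replicate 1 (adjusted p = 0.148) or 2 (0.0581).

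Among division genes, Plk1 read 1.76 and 1.55 in WT and -0.13 and -0.25 in N3KO cells, without overlap (-1.85 ± 0.11, adjusted p = 1.28e-05). Bub1, a spindle checkpoint kinase, fell from -0.40 and -0.51 to -3.09 and -4.21 (-3.20 ± 0.32, adjusted p = 0.000202), and Ccnb2 and Aurka were lower by 1.61 and 1.35. Ccna1 read 1.03 and 0.60 in WT cells and was not well above background on either N3KO array, so that it was at least 85.9-fold lower (adjusted p = 0.000149). The bound takes the lowest signal among probes well above background on the dim arrays. Ttk, another checkpoint kinase, was likewise at least 2.41-fold lower, with -0.24 (adjusted p = 0.7) under normexp. Mad2l1, of the same checkpoint, and Aurkb rose, by 1.01 ± 0.10 and 0.94 ± 0.15.

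The brightest Ccnb1 probe gave -2.79 for N3KO against WT, but the other 2 gave 0.92 and 1.55, and the mean of detected probes gave -0.11 (adjusted p = 0.694), so no direction is given for Ccnb1 here. Scaling changed the balance: 53.6% of called genes were higher as reported, against 65.3% with quantile normalization, 76.9% with median scaling and 64.3% with normexp, where the all-gene median was 0.27, 0.64 and 0.27. The members called were then 14 higher and 9 lower, 22 and 8, and 16 and 7. The summed level of 15 spermatid markers was 490 to 768 in WT and 0.566 to 0.667 in N3KO cells, and all 14 spermatocyte markers were lower, with Ldhc at 6.97 and -5.45. Macrophage and immune markers went from 6.92 to 12.6 up to 39.2 to 153, and 7 of 8 were called higher. Fibroblast markers went from 19.6 to 24.1 up to 50.6 to 173, with 6 of 6 higher, and Leydig markers from 2000 to 2060 down to 749 to 1170, with 5 of 9 lower. Spermatogonial markers summed to 26.8 to 29.3 in WT and 22.8 to 41.5 in N3KO cells. The part of these cells in the result was not tested.

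**Figure D4:**
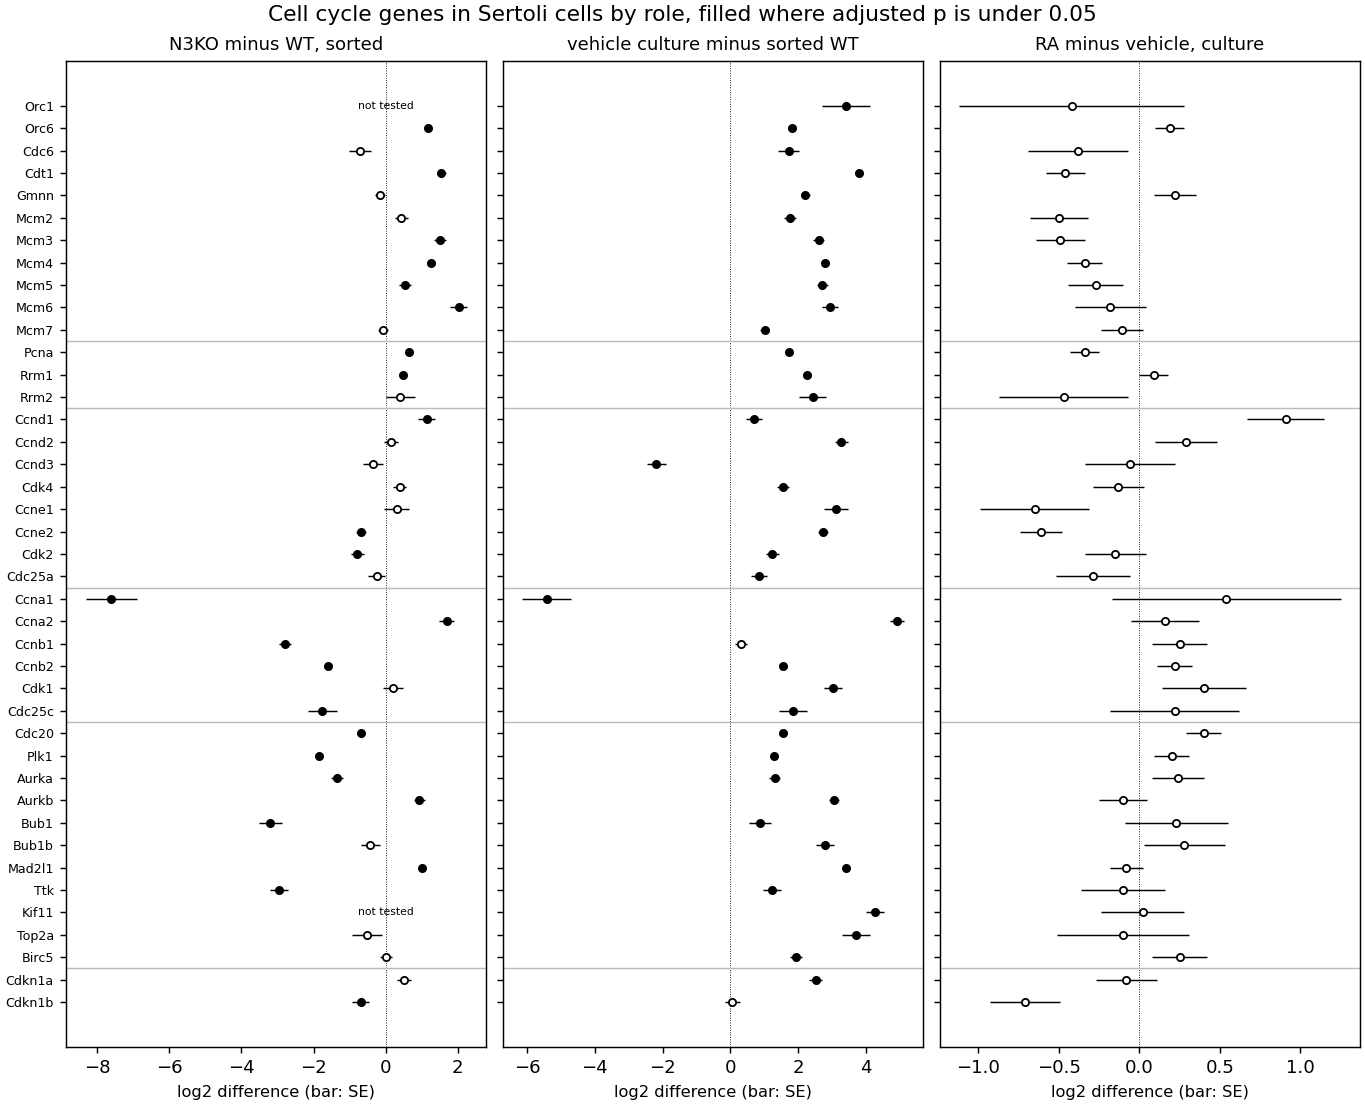
Differences of the measured members, grouped by role, for N3KO minus WT, cultured vehicle minus WT, and RA minus vehicle, in log2 units, with bars for 1 SE. Filled points have an adjusted p under 0.05. In the first comparison the filled licensing genes lie above 0 and most filled cyclin and mitosis genes below it, all members but Ccnd3 and Ccna1 lie above 0 in the second, and those of the third lie between -0.71 and 0.91.

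In culture both sides of the programme were high. Relative to sorted WT cells, 39 of 41 members were called in cultured vehicle cells, 37 higher and 2 lower, beside 74.8% of all genes (32% higher and 42.8% lower). All 11 licensing genes, all 3 DNA synthesis genes and all 11 measured mitosis genes were higher, with a median member difference of 1.94 beside -0.21 for all genes. Ccna1 and Ccnd3 were the 2 lower members. Among the mitosis genes Bub1 was not past the threshold without any 1 of the 4 arrays (adjusted p from 0.0962 to 0.144). Cultured and sorted cells were scanned on different days, so culture and scan day cannot be told apart.

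Ccna2 rose from -2.19 and -2.40 in sorted WT to 2.63 and 2.61 in vehicle cells, a gap of more than 4 units between the groups and 30.1-fold by the fit (4.91 ± 0.21, adjusted p = 2.11e-06). Cdt1 went from -0.60 and -0.64 to 3.23 and 3.13 (3.80 ± 0.13, adjusted p = 7.26e-07). Plk1 went from 1.76 and 1.55 to 2.99 and 2.89 (1.29 ± 0.11, adjusted p = 4.73e-05), and remained below its 4.46 and 4.48 of whole testes. Kif11, the spindle motor, was above background on 1 of 2 WT arrays and on both vehicle arrays, and its difference was 4.27 ± 0.27. Its second probe gave 1.09, above background on 2 of the 4 arrays.

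The D cyclins parted in culture. Ccnd2 reached 4.87 and 4.83 from 1.58 and 1.55 in sorted WT cells, 9.71-fold higher, whereas Ccnd3 fell from 3.85 and 4.22 to 1.78 and 1.91, 4.58-fold lower (adjusted p = 8.74e-06 and 0.000351). Ccna1 stood at -4.87 and -4.32, below WT by -5.42 ± 0.72 (adjusted p = 0.000414). Ccnb1 did not pass with its brightest probe (0.32 ± 0.18, adjusted p = 0.14), and its other 2 probes gave 4.34 and 4.97, while for Cdk2 the probes gave 1.24 and -2.02, the second above background on 2 of the 4 arrays. Against N3KO cells, whose spermatocyte and spermatid markers were near background, 40 members were called, 39 higher and 1 lower, beside 69% (33.6% higher and 35.4% lower). Plk1 was 3.13 ± 0.11 and Ccnb2 3.18 ± 0.11 higher, and for Ccnb1 the 3 probes gave 3.11, 3.42 and 3.43. Of all genes called 48.7% were higher, and 62.4% with median scaling.

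Spermatid markers in vehicle cells summed to 0.652 to 0.696, with 9 of 15 below background on both arrays. Spermatocyte markers summed to 20.0 to 20.5, below sorted WT cells at 124 to 177 and above N3KO cells at 0.183 to 0.27, with Tex101 at 2.65 in vehicle and -7.06 in N3KO cells. Against sorted WT cells, Leydig markers went from 2000 to 2060 down to 15.0 to 15.7, endothelial markers from 24.7 to 36.0 down to 1.16 to 1.17, and fibroblast markers from 19.6 to 24.1 up to 73.5 to 81.8. The part of these cell types in the culture values was not tested. Of the other genes of the cycle, 34 of 38 for replication and 38 of 44 for G2 and mitosis were higher in vehicle than in WT cells, including Pole2, a polymerase subunit (3.38 ± 0.12), and Sgo1, shugoshin (4.27 ± 0.11). The share of called genes that were higher was 42.8%, and 54%, 66.1% and 50.1% with quantile, median and normexp processing, where 38, 39 and 34 members were higher and 2 lower.

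RA called none of the 41 members against vehicle, where 5.46% of genes were called (3.54% higher and 1.92% lower). An unadjusted p under 0.05 in limma was reached by 9 members, a count with no share of all genes given beside it. Licensing and synthesis genes had a median difference of -0.34 and mitosis genes of 0.20. The largest single differences were 0.91 ± 0.24 for Ccnd1 (adjusted p = 0.0828) and -0.71 ± 0.22 for Cdkn1b (adjusted p = 0.148). Ccne2 came nearest to the threshold, from -2.13 and -2.36 to -2.85 and -2.86 without overlap (-0.61 ± 0.13, adjusted p = 0.0506). A fit to the 4 cultured arrays alone, which takes the spread from those arrays, called 23 members, 10 higher and 13 lower, beside 35.8% of all genes in that fit, so this result depends on where the spread is taken from. Of the other genes of the cycle Gadd45a, a stress-induced growth arrest gene, rose by 1.61 ± 0.24, Ect2, the exchange factor that starts cytokinesis, by 0.80 ± 0.12, and Chaf1a fell by 0.53 ± 0.10.

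Tubules given the Venus virus differed from untreated ones over the 4 stages in 29 members, 17 higher and 12 lower, beside 66.8% of genes (36.2% higher and 30.6% lower), with all arrays of the 2 arms on different slides and days, so that virus and scan day cannot be told apart. Pcna was 1.13 ± 0.05 and Ccnd1 1.34 ± 0.09 higher, and Birc5, survivin, 0.68 ± 0.06 and Bub1 0.80 ± 0.09 lower. For Mcm3 the 2 probes gave -1.57 and 0.39. With normexp the share of called genes that were higher went from 54.2% to 30.1% and the members to 12 higher and 10 lower. Of 20 Sertoli markers 16 were higher in Venus tubules and 0 lower, and 7 of 8 macrophage and immune markers were higher, whose part in the result was not tested.

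With dnRARa few cycle genes were called, and those in single stage groups lay at IV-VI and IX-XII. Against Venus at the same stage, 0 members were called at I-III (beside 0.00896% of genes, all of them higher), 4 at IV-VI, all lower (beside 3.34%, 1.53% higher and 1.81% lower), 0 at VII-VIII (beside 1.54%, 0.749% higher and 0.788% lower) and 3 at IX-XII, all higher (beside 4.67%, 3.18% higher and 1.49% lower). No licensing or DNA synthesis gene was called at any stage by limma, where an unadjusted p under 0.05 was reached by 0, 2, 2 and 4 of these 14 genes in stage order. The share of all genes at that unadjusted threshold is not given here. Over the 4 stages together 4 members were called beside 12.2% of genes (8.26% higher and 3.98% lower), with Cdkn1b (-0.55 ± 0.12), Cdkn1a (-0.33 ± 0.10) and Cdk1 (-0.32 ± 0.07) lower and Ccnd1 (0.33 ± 0.09) higher. This fit takes the arrays of an arm as independent, though each slide held all 4 stages of 1 replicate, so these SEs may be too small. Within the 2 scan days the differences were -0.4 and -0.71 for Cdkn1b and -0.32 and -0.35 for Cdkn1a. They were -0.24 and -0.4 for Cdk1 and 0.58 and 0.08 for Ccnd1. Of the genes called over the stages 67.5% were higher, and 56.6%, 53.9% and 56.5% with quantile, median and normexp processing. At IX-XII 68.1% were higher, and 51.6% with normexp, and at VII-VIII 48.7%, and 25.4% with normexp.

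At IV-VI the lower members were Ccna1, Aurka, Cdk1 and Cdkn1b. Ccna1 read 4.53 and 4.31 in Venus and 3.76 and 3.18 in dnRARa tubules (-0.95 ± 0.19, adjusted p = 0.0189), Aurka 5.01 and 4.84 against 4.10 and 3.93 (-0.91 ± 0.17, adjusted p = 0.0159), and Cdk1 1.63 and 1.44 against 0.94 and 0.77 (-0.68 ± 0.14, adjusted p = 0.0241). The groups did not overlap. Within each scan day Aurka differed by -0.91 and -0.91. The dnRARa IV-VI replicate 2 array had 60.6% of spots above background, the lowest of the virus arrays. No member was called without Venus IV-VI replicate 1 or 2 or dnRARa IV-VI replicate 2, and Aurka then had an adjusted p of 0.126, 0.0627 and 0.23. Cdkn1b, with an adjusted p of 0.0499, was not called without any 1 of the 4 arrays (0.0784 to 0.456).

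At IX-XII Ccnb1, Plk1 and Cdc25a, the phosphatase that activates CDKs, were higher with dnRARa. Ccnb1 read 2.26 and 2.38 in Venus and 3.28 and 3.48 in dnRARa tubules, without overlap (1.06 ± 0.16, 2.08-fold, adjusted p = 0.00156). Plk1 read 4.39 and 4.53 against 5.21 and 5.22 (0.75 ± 0.17, adjusted p = 0.0224), and Cdc25a -1.32 and -1.23 against -0.49 and -0.44 (0.81 ± 0.14, adjusted p = 0.00483). The untreated IX-XII arrays, on other slides and days, read 3.1 and 3.37, 5.36 and 5.72, and -0.50 and -0.77 for the 3 genes, on the side of the dnRARa arrays.

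Ccnb1 remained called without any 1 of the 4 arrays. Cdc25a was not called without Venus IX-XII replicate 1 (adjusted p = 0.0652) or dnRARa IX-XII replicate 2 (0.0529), and Plk1 not without any of the 4 (0.0952 to 0.198). The count at IX-XII was 1 without Venus replicate 1 or dnRARa replicate 2. The 3 probes of Ccnb1 gave 1.06, 0.28 and 0.03, and their mean 0.46 (adjusted p = 0.198). Over the 4 stages, 2 members were called without replicate 1 of Venus VII-VIII, Venus IX-XII, dnRARa VII-VIII or dnRARa IX-XII, with Ccnd1 and Cdkn1a lost. With slide as a random block Cdkn1a was not called over the stages (adjusted p = 0.0713), nor Cdkn1b at IV-VI (0.056), and no other dnRARa call of a member was lost.

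A test of whether the dnRARa difference itself varied with stage called 1 of 41 members, Ccnb1 (limma F test, adjusted p = 0.0245), beside 0.767% of genes. Its differences were -0.10, -0.34, -0.12 and 1.06 in stage order. Plk1 (-0.14, -0.51, -0.34 and 0.75, adjusted p = 0.0679) and Aurka (-0.31, -0.91, 0.21 and 0.18, adjusted p = 0.0907) did not pass. The count was 0 without Venus IV-VI replicate 1, either Venus IX-XII replicate, dnRARa IV-VI replicate 2 or either dnRARa IX-XII replicate, and 2 without replicate 1 of dnRARa IV-VI or dnRARa VII-VIII. Within both scan days 35 of 41 members had the same sign at IX-XII and 31 at IV-VI (85.4% and 75.6%), where 73.1% and 69.7% of all genes tested had. At I-III 17 members had the same sign and at VII-VIII 19 (41.5% and 46.3%), beside 58.5% and 58.1% of genes.

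**Figure D5:**
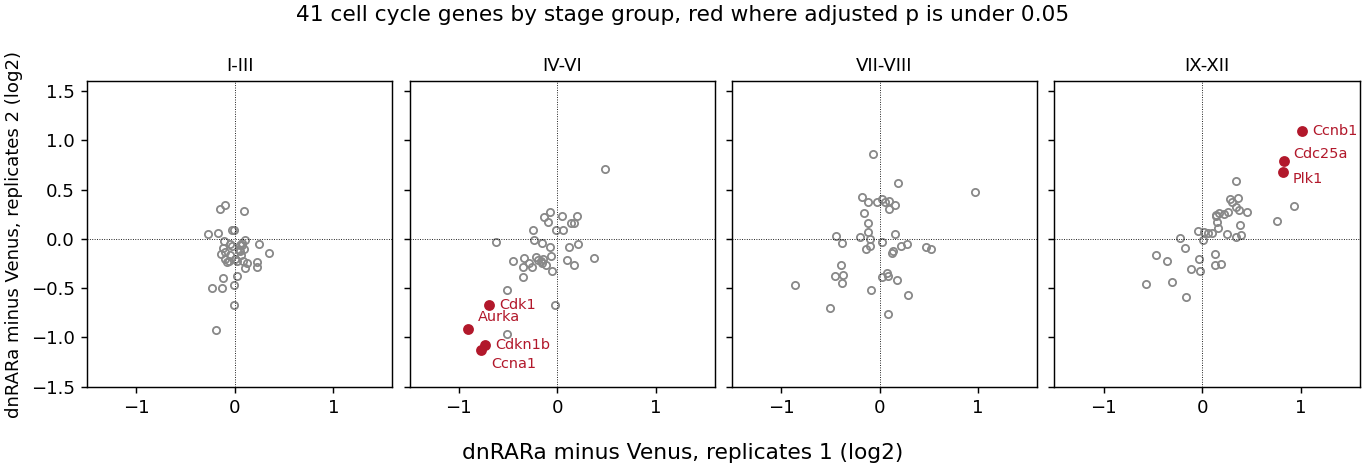
Difference between dnRARa and Venus tubules of each measured member in replicate 1 (horizontal) and replicate 2 (vertical), which were scanned on separate days, in log2 units, with a panel for each stage group. The members with an adjusted p under 0.05, in red, are Ccnb1, Plk1 and Cdc25a in the upper right at IX-XII, and Ccna1, Aurka, Cdk1 and Cdkn1b in the lower left at IV-VI, where Rrm2, which did not pass, also lies (-0.51 and -0.97).

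Other genes of the cycle gave few calls with dnRARa. At IX-XII, 6 of 44 genes of G2 and mitosis were higher and 0 lower, among them Cenpe (0.91 ± 0.13, adjusted p = 0.00101) and Kif18a, a kinesin of chromosome alignment (0.82 ± 0.11, adjusted p = 0.00087). Of 38 replication genes 0 were higher and 2 lower, Tk1, thymidine kinase, by 1.14 ± 0.21 and Chaf1b by 0.53 ± 0.14. At IV-VI Ccnf, cyclin F, fell by 0.95 ± 0.15. The summed spermatocyte marker level at IX-XII was 291 to 310 in Venus and 305 to 408 in dnRARa tubules, and that of Sertoli markers 123 to 125 and 147 to 169. Their part in the difference was not tested.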

How the data were processed

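Total RNA of 34 samples was labelled with Cy3 and hybridised to 1-colour Agilent arrays, per the labels' protocols, and scanned images were read with Agilent Feature Extraction 9.5, per the submitters' processing notes (9.5.3.1 in the file headers). The authors deposited each array's spot intensity as the processed signal, which that software had background-corrected, per the file headers. From these, log2 intensity was taken and each array's 75th percentile subtracted, after control spots were left out. The 41174 probes were averaged over spots. Accessions matched 22951 of the probes and symbols or synonyms 67 to mouse genes, and 18156 were not matched. Unmatched probes stood under their own names and were counted among the genes. A gene took its brightest probe, and entered a comparison where both arrays of a compared group showed it well above background.

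Differences were tested with limma 3.58.1 in R 4.3.3, in 1 fit over the 10 cell arrays (5 residual degrees of freedom) and 1 over the 24 tubule arrays (12), on all genes, with Benjamini-Hochberg adjustment and a threshold of 0.05. SE is the moderated standard error, and p-values rest on 2 samples a group. Members and lists were chosen with earlier results of these data known. Any member could be named. Of each other cell cycle list, the 2 genes with the smallest adjusted p among those called in a comparison could be, and of each marker list its 2 members with the highest mean. Alternatives were other scalings and background corrections, detection filters, probe rules, blocks and leaving out each array.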

Additional observations from a re-analysis of the deposited data

Results flagged for a closer look

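The difference of Ccnb1, cyclin B1, between dnRARa and Venus tubules varied between stage groups by a test of the interaction itself (limma F test, adjusted p = 0.0245). Slide and virus cannot be told apart in it. The call was lost without certain single arrays, with no detection filter and with the mean of probes. Both dnRARa arrays exceeded both Venus arrays at IX-XII, by 1.06, and the differences at I-III, IV-VI and VII-VIII were -0.10, -0.34 and -0.12. Its other 2 probes gave 0.28 and 0.03 at IX-XII.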

How the results depend on the processing

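For members called, 4100 values under alternatives other than leaving out an array kept their direction and side of the threshold, 292 lost the threshold and 15 reversed. Leaving out an array kept 1879 and lost 293. Reversed values under normexp were 0.92 (Ccne2) and 0.54 (Cdk2) for N3KO against WT, 0.11 (Ccnd1) and 0.03 (Cdkn1b) into VII-VIII, -0.32 (Cdkn1b) into IX-XII, -0.50 (Ccnd1) and -0.32 (Cdkn1b) for I-III against IX-XII, and -0.10 (Cdkn1a) and -0.10 (Cdkn1b) for Venus against untreated. Ccne2 in N3KO cells was 0.27 with quantile normalization. With the mean of detected probes Cdk2 was -0.39 for vehicle against WT, Kif11 0.90 for I-III against IX-XII, Ccnb1 0.04 and Cdc6 -0.14 for Venus against untreated, and Cdc6 0.10 into VII-VIII with dnRARa. The cause was not tested.

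Counts of members called also moved. With only the arrays compared, which leaves fewer samples to estimate the spread, they were 14 for N3KO against WT, 23 for RA, 0 into IV-VI, 18 into IX-XII, 0 for I-III against IX-XII, 0 for dnRARa at IV-VI, 2 for the interaction, and 0 into IV-VI and 18 into VII-VIII within dnRARa tubules. For RA they were 1 with quantile normalization, with detection on every array and with the mean of probes, and 2 with an intensity trend. With normexp they were 11 for I-III against IX-XII, 0 for dnRARa over stages, 2 at IV-VI and 1 at IX-XII. At IV-VI dnRARa called 2 with median scaling and 2 with no filter, and at VII-VIII 1 with quantile normalization and 1 with a random slide block. The interaction called 0 with no filter, 2 with detection on every array, 0 with the mean of probes and 3 with an intensity trend. Within dnRARa tubules the step into IV-VI called 4 with median scaling. The range of the profile means was 2.48 (replication, cells), 4.76 (division, cells), 0.81 and 3.06 (the same in tubules) with quantile normalization, 3.24 and 4.63 (cells) with median scaling, 2.07, 4.78 (cells) and 3.09 (division, tubules) with normexp, and 3.97 (division, cells) and 0.89 (replication, tubules) with the mean of probes.

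Leaving out 1 array gave 35 to 36 members for WT against testes, 20 to 31 for N3KO, 36 to 37 and 37 to 39 for vehicle against WT and N3KO, and 0 for RA. It gave 34 to 37 over the untreated stages, 12 to 15, 18 to 22, 25 to 30 and 8 to 17 for the 4 untreated steps, and 27 to 29 for Venus. For dnRARa it gave 2 to 4 over stages, 0, 0 to 3, 0 and 1 to 2 by stage, and 0 to 2 for the interaction. The steps gave 0, 25 to 26, 22 to 26 and 20 to 21 in Venus and 2 to 7, 22 to 24, 23 to 27 and 17 to 22 in dnRARa tubules.

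With the replicate block, 23 members were called for N3KO against WT, 21 into IV-VI, 4 for dnRARa over stages, 4 at IV-VI, 3 at IX-XII and 1 for the interaction, and no count moved by over 1.5 times. Deviations of same-numbered arrays of the same stage correlated at -0.065 to 0.102 between Venus and dnRARa. Between stages of 1 arm they correlated at 0.433 to 0.683 in dnRARa, 0.044 to 0.466 in Venus and 0.2 to 0.667 in untreated tubules, and in the virus arms a number is also a slide and a scan day. With only 2 numbers and none tied to a shared animal by the labels, they were not taken as pairs. With 2 arrays a group, probes near background were the least certain.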
